A study of Mus musculus with 18 samples.

Results

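Hippocampus was compared with cortex in mice exposed to urban particulate matter (UPM) for 3 days to 3 weeks. The comparison rests on 8 of the 18 libraries of the series, 4 of hippocampus and 4 of cortex, chosen by their labels and by file headers that begin with H- or C-. Each tissue has 1 library at 3 days, 5 days, 7 days and 3 weeks. All 8 come from male C57BL/6 mice, 7 weeks old at the start, that received UPM (SRM 1648a, a certified city dust suspended in PBS) through the nose, once daily in the 3-, 5- and 7-day groups and 2 times per week in the 3-week group. Each library was made from the pooled RNA of several mice, and the labels do not say whether both tissues came from the same mice. No library of unexposed mice is among the 8, so the comparison measures the difference between 2 exposed tissues and not an effect of the exposure. The other 10 libraries, of vehicle controls and of mice exposed for 8 to 20 weeks, are used only to set the same tissue difference beside this one. Libraries of different times serve as replicates, so p-values measure the spread between these pooled libraries and not that between mice.

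The hippocampus holds the granule cells of the dentate gyrus and the pyramidal cells of the fields CA1 to CA3, linked in a chain that runs from the dentate gyrus over CA3 to CA1 and the subiculum and is known for its part in memory. The cortex is built of layers: upper-layer neurons project within the cortex, and those of layers 5 and 6 project to the striatum, brainstem and thalamus. Both tissues share most types of inhibitory neurons and glia, and a dissection of either can take along pieces of the striatum, thalamus or choroid plexus that lie against it.

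The hippocampal libraries held 5.43 to 7.37 M counts and the cortical ones 8.20 to 8.97 M, so that 3 counts equal 0.335 to 0.552 CPM, counts scaled to the total of a library. Levels are CPM scaled with TMM, a scaling that sets the libraries' typical genes level, and values for a tissue are given in the order 3 days, 5 days, 7 days and 3 weeks. Differences, also those in parentheses after a gene, are log2 fold changes ± SE, hippocampus minus cortex, with n = 4 libraries per tissue. On the first principal component, with 29.8% of the variance, the hippocampal libraries lay at -23, -49.2, -41.7 and -1.8 and the cortical ones at 23.7 to 33.8, so the hippocampus of 3 weeks lay nearest to cortex. Some libraries stood apart in genes of neighbouring structures. Of 19 striatal neuron genes 15 were tested. The summed level of the 19 was 2483 CPM in the 5-day cortex, 615 to 928 CPM in the other cortical libraries and 593 to 701 CPM in hippocampus. Of 20 choroid plexus genes 18 were tested. The 20 summed to 8421 CPM in the 3-day hippocampus, 5498 CPM in the 3-day cortex, 2622 CPM in the 3-week cortex and 239 to 934 CPM in the other 5. Many of the results that these libraries touch are given with their values in single libraries or without them, and some as a fold change alone. Further values of libraries that stood apart are given under the results flagged for a closer look.

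With exposure time as a factor, edgeR's quasi-likelihood test called 635 of 13053 genes (4.86%) at an adjusted p under 0.05: 315 were higher in hippocampus (2.41%) and 320 lower (2.45%). The median log2 fold change, hippocampus minus cortex, was -0.02 over all genes tested. Among the called genes the median size was 0.9 on the log2 scale and the smallest 0.43. Of those called, 136 were higher and 133 lower by more than 1 on that scale, and 39 and 33 by more than 2. The direction was the same at each of the 4 times for 631 of the 635. In 528 of them the hippocampal and the cortical libraries did not overlap. The test chose the 635 from these same libraries, so neither count is a separate check of them. Over all genes tested, every hippocampal library lay above every cortical one for 710 genes (5.44%) and below for 682 (5.22%). The number called depended on the libraries: it was 305, 305, 524 and 392 without the 3-day, 5-day, 7-day and 3-week pair, and 205 of the 635 passed in each of those 4 fits. In whole-tissue RNA, fewer cells of a type and less RNA per cell cannot be told apart, which holds for each result that follows. Counts of list members below were not tested against the 2.41% and 2.45% called over all genes.

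The genes with the largest differences toward hippocampus included several of dentate granule and CA1 pyramidal cells, and those toward cortex several of cortical neurons. Dsp encodes desmoplakin, a junction protein that dentate granule cells express (chromosome 13, 38151294 to 38198577, GRCm38). Its level was 25.99, 35.03, 52.03 and 15.6 CPM in hippocampus and 1.23, 0, 0.119 and 1.34 CPM in cortex, so the lowest hippocampal library was above each cortical one, and the log2 fold change was 5.44 ± 0.61 (adjusted p = 0.00038). Lct, the lactase gene (chromosome 1, 128284756 to 128328318), stood at 22.2, 26.99, 32.7 and 15.01 CPM in hippocampus and 0.891, 2.32, 0.714 and 0.244 CPM in cortex. Its difference was 4.64 ± 0.38 on the log2 scale (adjusted p = 8.47e-05), again with no overlap. C1ql2 encodes a secreted organiser of mossy fibre synapses (chromosome 1, 120340582 to 120343174) and was measured at 94.9, 108, 98.2 and 61.7 CPM in hippocampus and 5.79, 0, 6.90 and 5.13 CPM in cortex. It was higher in hippocampus by 4.42 ± 0.49 (adjusted p = 0.00038), and the 5-day cortex had no count of it. Lefty1, an antagonist of Nodal signalling (chromosome 1, 180935022 to 180938400), had 10.6, 3.93, 22.7 and 10.8 CPM in hippocampus and 0.334, 1.34, 0 and 0.977 CPM in cortex (log2 fold change 4.02 ± 0.77). Slc9a4, a sodium-hydrogen exchanger (chromosome 1, 40580081 to 40630725), had 4.16, 17.5, 12.8 and 5.32 CPM in hippocampus and 1.56, 0.367, 0.714 and 0 CPM in cortex (3.94 ± 0.73). In cortex Lefty1 reached at most 1.34 CPM and Slc9a4 at most 1.56 CPM, and neither gene overlapped between the tissues.

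Fibcd1, a marker of CA1 pyramidal cells (chromosome 2, 31813290 to 31846005), was found at 61.1, 47.01, 54.5 and 35.8 CPM in hippocampus and 8.58, 0.734, 3.69 and 3.42 CPM in cortex (log2 fold change 3.76 ± 0.35, adjusted p = 0.00015). Spink8, a serine protease inhibitor gene of the same cells (chromosome 9, 109812280 to 109826633), was found at 34.1, 36.5, 59.7 and 31.2 CPM in hippocampus and 6.13, 1.71, 4.76 and 1.10 CPM in cortex (3.69 ± 0.33). The tissues did not overlap in either gene. Further large differences toward hippocampus were those of Tspan18, a tetraspanin (chromosome 2, 93201760 to 93334505; 3.30 ± 0.61), Shisa6, an AMPA receptor partner (chromosome 11, 66211725 to 66525964; 3.12 ± 0.38), Lhx9, a LIM homeodomain factor (chromosome 1, 138825186 to 138848577; 3.0 ± 0.36), and Il16, a cytokine precursor (chromosome 7, 83642825 to 83745726; 2.90 ± 0.41). Lrrc10b, a leucine-rich repeat gene (chromosome 19, 10455371 to 10457473), had 59.1, 61.5, 104 and 37.8 CPM in hippocampus and 3.01, 62.6, 5.36 and 4.64 CPM in cortex. The 5-day cortex reached the hippocampal range there and the other cortical libraries did not, and the log2 fold change of 2.83 ± 0.59 (adjusted p = 0.015) became 3.92 with the 5-day cortex left out and time not a factor.

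Toward cortex, the largest difference was that of the predicted gene Gm11549 (chromosome 3, 36515057 to 36521813), at 1.21, 0.357, 3.34 and 2.59 CPM in hippocampus and 18.04, 35.6, 17.7 and 22.9 CPM in cortex (log2 fold change -3.61 ± 0.46, adjusted p = 0.00077). Tnnc1, the slow muscle and cardiac troponin C gene (chromosome 14, 31208312 to 31211729), was present at 0, 0.536, 0.696 and 4.37 CPM in hippocampus and 22.3, 12.2, 6.67 and 11.6 CPM in cortex (-3.50 ± 0.70, adjusted p = 0.011), and Myl4, a myosin light chain gene found in layer 5 neurons (chromosome 11, 104550663 to 104595753), at 1.21, 1.97, 0 and 3.14 CPM in hippocampus and 18.1, 19.1, 8.10 and 14.8 CPM in cortex (-3.45 ± 0.51). Each hippocampal library lay below each cortical one in these 3 genes. Exph5, an effector of the vesicle GTPase Rab27 (chromosome 9, 53301670 to 53377514), was measured at 4.16, 4.29, 6.96 and 8.73 CPM in hippocampus and 41.4, 37.8, 33.2 and 49.1 CPM in cortex (-2.76 ± 0.23, adjusted p = 8.47e-05). Foxp2, a forkhead factor of neurons in layer 6 (chromosome 6, 14901349 to 15441977), was measured at 3.98, 8.22, 1.53 and 16.1 CPM in hippocampus and 39.99, 52.6, 20.9 and 59.8 CPM in cortex (-2.78 ± 0.28, adjusted p = 0.00018). The highest hippocampal value of Foxp2, that of 3 weeks, was below the lowest cortical one, that of 7 days.

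Other large differences toward cortex were those of Atp6ap1l, a relative of a proton pump subunit (chromosome 13, 90883433 to 90905355; -3.13 ± 0.48), Dkkl1, a secreted dickkopf-like protein (chromosome 7, 45207519 to 45212147; -3.03 ± 0.50), Cited4, a transcriptional coactivator (chromosome 4, 120666572 to 120667820; -2.93 ± 0.52), Igfbp6, a binding protein of insulin-like growth factors (chromosome 15, 102144362 to 102149511; -2.58 ± 0.61), Sema3a, a secreted guidance cue (chromosome 5, 13125414 to 13602565; -2.51 ± 0.47), and Rspo1, an activator of Wnt signalling (chromosome 4, 124986430 to 125009099; -2.51 ± 0.61). Their tissues did not overlap. Of the 24 genes with the largest differences, 15 passed in each of the 4 fits that leave out 1 time. Lefty1, Slc9a4, Tspan18 and Cited4 passed in 3 of them, Tnnc1, Igfbp6, Sema3a and Lrrc10b in 2, and Rspo1 in 1.

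**Figure D1:**
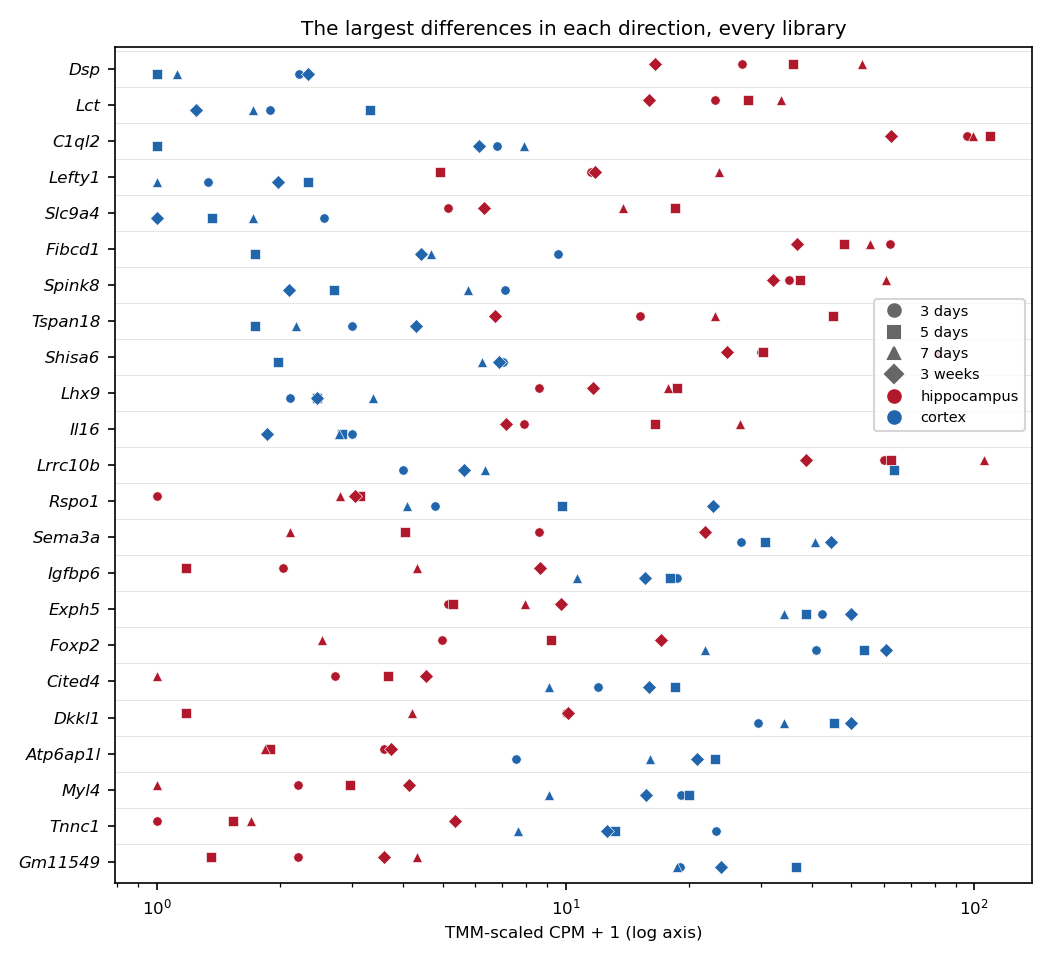
Level of the genes with the largest differences in each direction in every library (horizontal log axis, TMM-scaled CPM plus 1; red, hippocampus; blue, cortex; symbols mark the exposure time). The colours separate in each row except Lrrc10b, where the 5-day cortex at 62.6 CPM lies within the hippocampal range of 37.8 to 104 CPM.

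Of 18 genes listed for dentate granule cells, the input neurons of the hippocampus, 7 were higher in hippocampus and none lower, against the 2.41% called higher over all genes. Their median log2 fold change was 0.73. Beside Dsp, Lct, C1ql2 and Il16 these were Prox1, Dock10 and Tdo2. Prox1, the transcription factor that fixes granule cell identity, had 13.5, 16.3, 13.8 and 12.4 CPM in hippocampus and 5.79, 1.22, 2.50 and 4.64 CPM in cortex, without overlap (2.11 ± 0.41, adjusted p = 0.0097). Dock10, an activator of small GTPases, had 27.02, 38.4, 38.8 and 32.8 CPM in hippocampus and 22.4, 14.6, 15.6 and 16.4 CPM in cortex (0.997 ± 0.21, adjusted p = 0.018). Tdo2, a tryptophan-degrading enzyme, was low throughout, with 9.70, 1.25, 7.09 and 3.68 CPM in hippocampus and 2.005, 0.612, 0.119 and 0.122 CPM in cortex (3.10 ± 0.80, adjusted p = 0.043), and its 5-day hippocampal value fell within the cortical range. Prox1, Dsp, C1ql2, Lct and Il16 passed in each fit without 1 time. The other 11 did not pass: Sema5b 1.16 ± 0.38, Glis3 0.94 ± 0.57, Rfx3 0.52 ± 0.15, Trpc6 0.34 ± 0.26, Npnt 0.31 ± 0.39, Stxbp6 0.16 ± 0.15, Dgkh 0.12 ± 0.30, C1ql3 0.10 ± 0.19, Plk5 -0.14 ± 0.29, Calb1 -0.35 ± 0.12 and Pdzd2 -0.92 ± 0.27. Calb1, the calcium buffer calbindin, is also found in upper cortical layers and interneurons and stood at 71.7 to 103 CPM in hippocampus and 88.3 to 133 CPM in cortex.

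For CA1 pyramidal cells, the main output neurons of the hippocampus, 5 of 9 tested genes were higher and none lower. Over all genes 2.41% were called higher. The median of the 9 was 1.02, and 9 of 9 values were above 0. Pou3f1, a POU-domain transcription factor, had 235, 162, 196 and 192 CPM in hippocampus and 76.8, 69.6, 30.7 and 71.4 CPM in cortex, with each hippocampal library above each cortical one (1.72 ± 0.20, adjusted p = 0.00043). Ndst4, an enzyme of heparan sulfate synthesis, had 25.8, 10.4, 11.4 and 9.41 CPM in hippocampus and 2.56, 6.36, 5.83 and 1.83 CPM in cortex (1.79 ± 0.43), with the 3-day hippocampus the highest. Lrrtm1, a synaptic adhesion protein, had 97.9, 110.1, 80.8 and 63.99 CPM in hippocampus and 31.7, 48.9, 74.04 and 35.4 CPM in cortex (0.94 ± 0.20), where the 7-day cortex lay within the hippocampal range. Man1a (1.02 ± 0.33), Wfs1 (0.65 ± 0.33), Mpped1 (0.23 ± 0.14) and Nov (0.20 ± 0.41) did not pass, and Gpr161, with counts in 1 library alone, was not tested. Wfs1, an endoplasmic reticulum protein used to outline CA1, was at 48.9, 34.3, 20.6 and 44.9 CPM in hippocampus and at 26.7, 17.5, 40.4 and 14.3 CPM in cortex: the 7-day libraries ran against the other 3 times. Nov did the same, with 67.6, 45.9, 13.9 and 37.1 CPM in hippocampus and 40.5, 23, 60.95 and 20.4 CPM in cortex. With the 7-day pair left out 7 of the 9 CA1 genes passed, and 3, 4 and 3 without the 3-day, 5-day and 3-week pair.

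The smaller fields gave mixed values, where 2.41% were called higher and 2.45% lower over all genes. Of 9 tested genes of CA2, a narrow field between CA1 and CA3, Rgs14, a regulator of G proteins, was higher at 49.4, 68.8, 115 and 59.1 CPM in hippocampus and 47.3, 44.03, 44.5 and 34.4 CPM in cortex (0.72 ± 0.19, adjusted p = 0.047), and passed in 1 of the 4 fits without 1 time. Pcp4, a calmodulin regulator that layer 5 and striatal neurons also express, was lower, at 209, 215, 195 and 231 CPM in hippocampus and 371, 692, 360.1 and 417 CPM in cortex (-1.06 ± 0.15). Pcp4 was highest in the 5-day cortex. The other 7 did not pass: Nr3c2 1.67 ± 0.46, Amigo2 1.29 ± 0.48, Ntf3 1.01 ± 0.52, Cacng5 0.86 ± 0.39, Necab2 0.72 ± 0.24, Map3k15 -0.06 ± 0.20 and Ptpn5 -0.42 ± 0.17. Fgf2 had no count and was not tested. Nr3c2, the mineralocorticoid receptor, did not overlap between the tissues (6.96 to 10.7 CPM in hippocampus and 1.31 to 5.12 CPM in cortex; adjusted p = 0.056).

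Of 9 tested genes of CA3 pyramidal and mossy cells, the targets of granule cell axons, Trps1, a GATA-type repressor, was higher, at 113, 101, 109 and 94.4 CPM in hippocampus and 56.02, 51.4, 57.6 and 52.5 CPM in cortex (0.94 ± 0.12, adjusted p = 0.00098). Coch, which encodes cochlin, was lower, at 5.89, 2.68, 3.20 and 5.18 CPM in hippocampus and 12.5, 19.7, 12.5 and 19.2 CPM in cortex (-1.92 ± 0.33, adjusted p = 0.0045). Neither gene overlapped between the tissues. Bok 0.84 ± 0.24, Calb2 0.64 ± 0.54, Grik4 0.60 ± 0.34, Pvrl3 0.34 ± 0.35, Calcrl 0.10 ± 0.36, Elavl2 0.001 ± 0.13 and Glipr1 -0.28 ± 0.75 did not pass, and Iyd, Cdh24 and Csf2rb2 did not reach the filter on low counts. Iyd, an iodotyrosine deiodinase, had 1.21 to 10.6 CPM in hippocampus and 0 to 0.238 CPM in cortex. None of the 6 subiculum genes passed: Nts 1.13 ± 0.83, Dlk1 0.52 ± 0.66, Fn1 0.46 ± 0.35, Etv1 0.35 ± 0.24, Cntn6 -0.75 ± 0.41 and Slc17a6 -0.87 ± 0.48. None had an unadjusted p under 0.05 in edgeR, and none passed with DESeq2 or limma-voom, but Etv1 and Nts passed when the 7-day pair was left out. The 7-day hippocampus was the lowest of its tissue in summed subiculum genes, at 60.7 CPM against 176 to 318 CPM, with Nts at 0.556 CPM there and 16.8 to 21.1 CPM at the other times.

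Genes of the upper cortical layers were lower in hippocampus in 7 of 14 tested, against the 2.45% called lower over all genes, with a median log2 fold change of -0.95, and 1 was higher. Lamp5, a membrane protein of upper-layer neurons and of a class of interneurons, had 32.9, 14.1, 34.2 and 50.1 CPM in hippocampus and 154, 135, 87.97 and 158 CPM in cortex (-2.08 ± 0.24, adjusted p = 0.00043). Rorb, the orphan nuclear receptor that marks layer 4, had 93.9, 79.7, 70.1 and 111 CPM in hippocampus and 149, 246, 191 and 228 CPM in cortex (-1.20 ± 0.16). The tissues did not overlap in either, and the 3-week hippocampus held the highest hippocampal value of both. Cux1, a homeodomain factor, had 31.6 to 59.5 CPM in hippocampus and 62.5 to 88.8 CPM in cortex (-0.91 ± 0.16), and its relative Cux2 did not pass (5.20 to 13.5 CPM in hippocampus and 12.1 to 19.6 CPM in cortex; -0.98 ± 0.29). Kitl, the ligand of the Kit receptor (-1.47 ± 0.28), Stard8, a regulator of small GTPases (-1.26 ± 0.27), Rasgrf2, a Ras activator (-0.51 ± 0.13), and Rspo1 were lower too. Mdga1, an adhesion protein listed for upper layers that hippocampal neurons also express, went the other way, with 32.6, 39.9, 45.6 and 20.5 CPM in hippocampus and 8.58, 5.01, 14.4 and 5.01 CPM in cortex (2.13 ± 0.24, adjusted p = 0.0004). Otof -2.95 ± 0.88, Lmo4 -0.25 ± 0.14, Inhba -0.18 ± 0.43 and Scnn1a -0.06 ± 0.90 did not pass, nor did Calb1. Cux1, Lamp5, Mdga1 and Rorb passed in each fit without 1 time.

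Deep-layer genes divided by gene. Of 14 layer 5 genes, 3 were higher and 3 lower in hippocampus (median 0.37), against 2.41% and 2.45% over all genes. Bcl11b, the factor CTIP2 that layer 5 projection neurons, CA1 and the dentate gyrus all express, had 626, 465, 578 and 492 CPM in hippocampus and 235, 354, 201 and 183 CPM in cortex (1.19 ± 0.17, adjusted p = 0.0016). Bcl6, a transcriptional repressor, had 32.5 to 50.9 CPM in hippocampus and 14.2 to 20.8 CPM in cortex (1.19 ± 0.17), and Crym, a thyroid hormone binding protein, had 133 to 204 CPM in hippocampus and 51.03 to 106 CPM in cortex (1.08 ± 0.18). Lower were Myl4, Pcp4 and Deptor, an mTOR inhibitor (22.3 to 49.9 CPM in hippocampus and 51.4 to 86.99 CPM in cortex; -0.99 ± 0.17). The remaining 8 did not pass: Npr3 0.60 ± 0.25, Parm1 0.45 ± 0.17, Fam84b 0.42 ± 0.29, Tcerg1l 0.40 ± 0.41, Etv1 0.35 ± 0.24, Fezf2 0.32 ± 0.21, Rbp4 -1.0 ± 0.39 and Qrfpr -2.01 ± 0.88. Fezf2, the selector factor of layer 5 output neurons, stood at 31.7 to 86.8 CPM in hippocampus and 29.8 to 63.3 CPM in cortex.

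Of 12 tested genes of layers 6 and 6b, 3 were lower and 1 higher (median -0.95), against 2.45% and 2.41% over all genes. Tbr1, a T-box factor of layer 6 neurons that project to the thalamus, had 51.6, 34.5, 36.6 and 69.2 CPM in hippocampus and 107, 82.2, 82.02 and 96.6 CPM in cortex, with no overlap (-0.98 ± 0.15, adjusted p = 0.0026). Rprm had 35.8 to 76 CPM in hippocampus and 76.8 to 138 CPM in cortex (-0.93 ± 0.25), where the highest hippocampal library, that of 3 weeks, was just below the lowest cortical ones, those of 3 days and 3 weeks. Foxp2 was the other lower gene. Hs3st4, a heparan sulfate modifying enzyme, was higher, at 168 to 287 CPM in hippocampus and 112 to 177 CPM in cortex, with overlap (0.64 ± 0.16, adjusted p = 0.041). Not past the threshold were Nr4a2 0.67 ± 0.48, Tle4 0.02 ± 0.13, Ntsr1 -0.45 ± 0.55, Sla -0.80 ± 0.45, Ctgf -0.96 ± 0.41, Syt6 -1.05 ± 0.42, Cplx3 -1.48 ± 0.48 and Nxph4 -2.08 ± 1.12. Ctgf and Cplx3 mark layer 6b. Ctgf stood at 62.2, 21.1, 9.88 and 73.4 CPM in hippocampus and 38.2, 66.5, 68.6 and 95.6 CPM in cortex, so the 5- and 7-day hippocampi were low and those of 3 days and 3 weeks within the cortical range. Tbr1 and Foxp2 passed in each fit without 1 time, and Rprm in 1 and Hs3st4 in 1 of the 4.

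**Figure D2:**
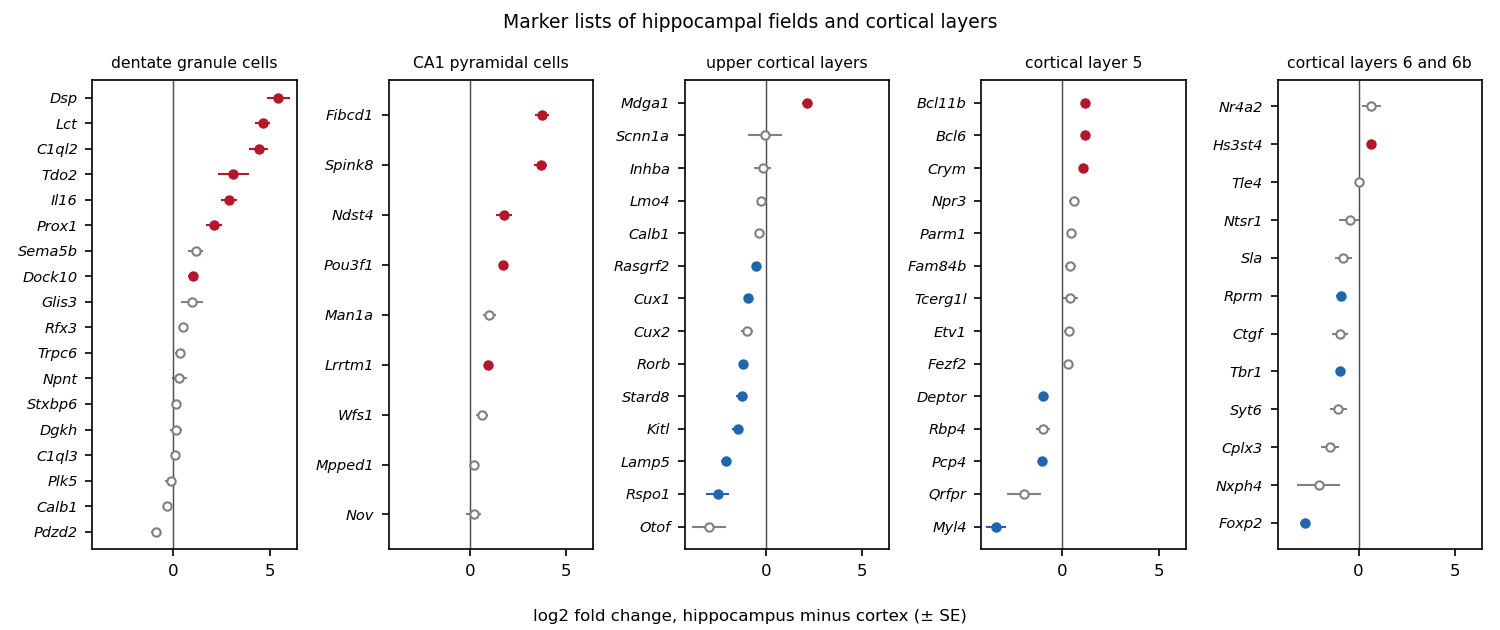
Log2 fold change, hippocampus minus cortex, of the tested members of 5 marker lists (points, with SE as bars; filled red, higher; filled blue, lower; open, not past an adjusted p of 0.05; n = 4 libraries per tissue). The filled points of the dentate and CA1 panels all lie right of 0, with medians of 0.73 and 1.02, and those of the upper layers lie left of 0 except Mdga1.

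Transcription factors of the forebrain differed in both directions. Of 41 tested, 15 were higher and 8 lower in hippocampus (median 0.33), where 2.41% and 2.45% were called over all genes. In this and later lists, passing members named beyond the 5 with the smallest p were chosen after their values were seen. Mef2c, a MADS-box factor of cortical neurons, had 834, 425, 453 and 1251 CPM in hippocampus and 2467, 1900, 2448 and 3052 CPM in cortex (-1.86 ± 0.18, adjusted p = 0.00017). The hippocampus of 3 weeks held 1251 CPM of it, the highest of its tissue, and lay below the lowest cortical value. Neurod2, a basic helix-loop-helix factor of excitatory neurons, had 413, 448, 622 and 332 CPM in hippocampus and 216, 202, 227 and 188 CPM in cortex (1.09 ± 0.13, adjusted p = 0.00053), and its relatives Neurod6 (1.26 ± 0.17) and Bhlhe22 (0.75 ± 0.15) were higher as well. Zbtb20, a zinc finger factor needed to form CA1, had 49.9, 59.5, 104 and 46.8 CPM in hippocampus and 23.2, 8.93, 29.4 and 14.5 CPM in cortex (1.81 ± 0.23). Emx2, needed for the growth of the dentate gyrus (1.06 ± 0.23), Lmo1 (1.85 ± 0.23), Zeb2 (0.86 ± 0.17), Nfia (0.69 ± 0.12), Nfix (0.64 ± 0.15), Tcf4 (0.63 ± 0.12) and Zbtb18 (0.58 ± 0.14) were higher, beside Lhx9, Bcl11b and Pou3f1. Pou3f2 (-1.19 ± 0.22), Tshz3 (-1.06 ± 0.26), Id2 (-0.63 ± 0.12) and Egr3 (-0.86 ± 0.21) were lower, beside Tbr1 and Foxp2. Nfib (0.56 ± 0.16), Bcl11a (0.47 ± 0.13) and Nr2f1 (-0.51 ± 0.14) were nearest to the threshold without passing it, and in these 3 the tissues did not overlap. Without the 3-day, 5-day, 7-day and 3-week pair, 11, 8, 15 and 12 higher and 4, 4, 8 and 7 lower passed. Zbtb18 passed in none of these fits.

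Genes of structures that lie against the dissected tissue were read beside these results. Of 15 tested genes of striatal projection neurons, 5 were lower in hippocampus and none higher (median -1.15), against 2.45% called lower over all genes. The 5-day cortex had the highest value of each. Drd1, the dopamine receptor of direct-pathway neurons, had 29.8, 25.02, 12.2 and 33.3 CPM in hippocampus and 41.4, 267, 42.4 and 69.8 CPM in cortex (-1.67 ± 0.35, adjusted p = 0.016). Penk, the enkephalin precursor of indirect-pathway neurons, had 17.7, 26.8, 22.1 and 10.5 CPM in hippocampus and 27.3, 255, 35.95 and 36.9 CPM in cortex (-1.61 ± 0.35, adjusted p = 0.019). Lower too were Tac1, the substance P precursor (11.6, 18.4, 5.43 and 13.1 CPM in hippocampus and 18.8, 112, 15.6 and 25.9 CPM in cortex; -1.47 ± 0.28), and Six3, a homeodomain factor of striatal progenitors (3.81, 26.8, 3.76 and 2.46 CPM in hippocampus and 8.58, 64.5, 6.55 and 6.23 CPM in cortex; -1.15 ± 0.23). With the 5-day cortex left out and time not a factor, Drd1 at -1.03, Penk at -0.80 and Tac1 at -0.74 did not pass, and Six3 turned to 0.35. Ppp1r1b, the phosphatase inhibitor DARPP-32 of the same neurons, had 86.3, 45.9, 46.7 and 53.2 CPM in hippocampus and 99.9, 467, 76.8 and 110.5 CPM in cortex and did not pass (-1.28 ± 0.37). Neither did Adora2a (1.45, 37.4, 1.31 and 4.76 CPM in cortex and 0 to 1.39 CPM in hippocampus; -3.57 ± 1.05), Adcy5 (-0.77 ± 0.22) and Foxp1 (-0.48 ± 0.14). Drd1 passed in each fit without 1 time. Without the 3-day, 5-day, 7-day and 3-week pair, 0, 1, 0 and 0 higher and 3, 2, 10 and 4 lower passed. The part of striatal cells in these differences was not tested further.

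Of 14 thalamus and habenula genes, Prkcd, a protein kinase C that thalamic neurons and some hippocampal cells express, had 11.9, 31.1, 24.9 and 7.64 CPM in hippocampus and 3.56, 2.69, 4.29 and 0.611 CPM in cortex (2.76 ± 0.35, adjusted p = 0.00084), and Lhx9 was higher as well. Ramp3, a receptor modifying protein (4.65 to 18.97 CPM in hippocampus and 18.8 to 39.6 CPM in cortex; -1.51 ± 0.24), and Rora, a nuclear receptor that layer 4 also expresses (82.6 to 167 CPM in hippocampus and 162 to 254 CPM in cortex; -0.84 ± 0.16), were lower, both with overlap of the 3-week hippocampus and a cortical library. Nwd2 (-0.55 ± 0.17) and Tac2 (-1.12 ± 0.44) did not pass, nor did Slc17a6, given above. In all, 2 of the 14 were higher and 2 lower (median 0.04), against 2.41% and 2.45% over all genes. Hdc (-1.58 ± 0.75), Pomc (-0.87 ± 0.57) and Baiap3 (0.03 ± 0.23) of the hypothalamus did not pass, and the other 12 listed genes were not tested. Baiap3 shares reads with its neighbour Tsr3, so its value is uncertain. None of 18 choroid plexus genes passed: Ttr, the transthyretin gene, had 6216, 182, 18.9 and 266 CPM in hippocampus and 3796, 7.83, 458 and 1796 CPM in cortex, a range that held both tissues (-0.82 ± 1.21). Enpp2 (-0.62 ± 0.23), Igfbp2 (-0.53 ± 0.23) and Kl (1.16 ± 0.36) were likewise highest in the 3-day hippocampus. At an unadjusted p under 0.05 there were 3 of the 18, and DESeq2 and limma-voom each called 1 higher. Of 9 ependymal genes none passed, among them Foxj1 (0.59 ± 0.47), Rsph1 (-0.65 ± 0.52), Mia (0.57 ± 0.71) and Pltp (-0.10 ± 0.18), and none of the hypothalamic or ependymal genes reached an unadjusted p of 0.05 or passed with DESeq2 or limma-voom.

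**Figure D3:**
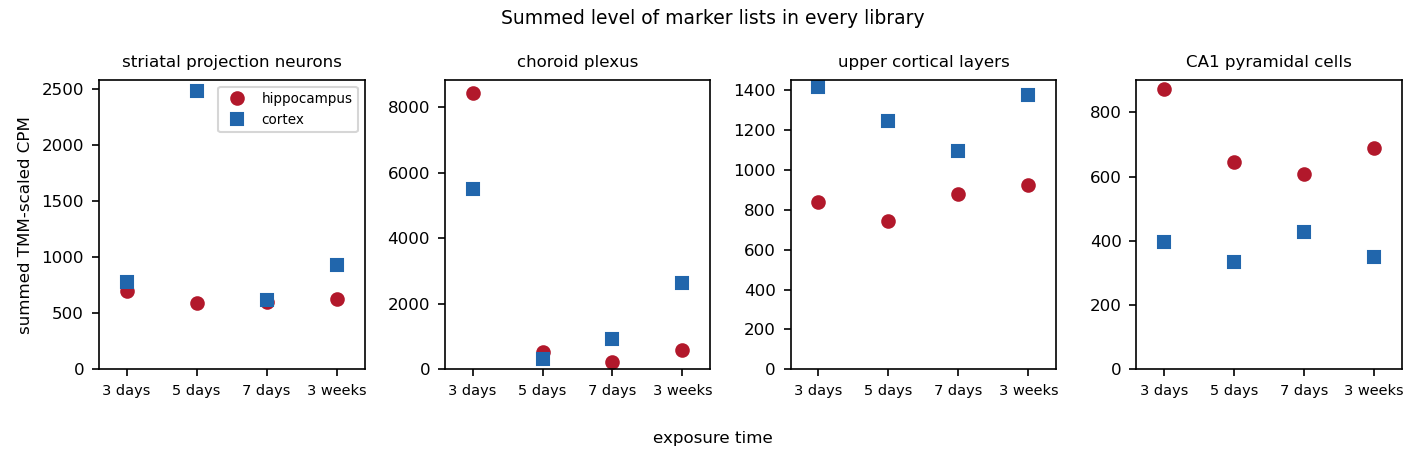
Summed TMM-scaled CPM of the members of 4 marker lists in each library against exposure time (red circles, hippocampus; blue squares, cortex; vertical axes start at 0 and differ between panels). The 5-day cortex stands apart in striatal genes (2483 CPM), the 3-day libraries in choroid plexus genes, and the tissues do not overlap in upper-layer and CA1 genes.

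Neuropeptide genes that passed were lower in hippocampus in each case. They were 6 of 21 tested, against 2.45% called lower over all genes, and none was higher (median -0.45). Crh, the corticotropin-releasing hormone gene of cortical interneurons, had 7.97, 5.18, 2.09 and 6.96 CPM in hippocampus and 24.4, 21.6, 14.3 and 24.8 CPM in cortex (-2.02 ± 0.26, adjusted p = 0.00092). Cartpt, the precursor of CART peptides, had 1.04, 4.11, 2.64 and 4.23 CPM in hippocampus and 8.35, 26.5, 12.9 and 10.7 CPM in cortex (-2.26 ± 0.35, adjusted p = 0.0024). Both passed in each fit without 1 time, and in neither did the tissues overlap. Npy, the neuropeptide Y gene of a broad class of interneurons, had 78.8, 94.5, 86.1 and 85.8 CPM in hippocampus and 160.3, 179, 110.0 and 141 CPM in cortex (-0.75 ± 0.14, adjusted p = 0.0066). Vip, the marker of interneurons that inhibit other interneurons, had 15.4, 8.58, 3.76 and 23.1 CPM in hippocampus and 25.5, 30.2, 30.9 and 30.9 CPM in cortex (-1.41 ± 0.35, adjusted p = 0.036). Penk and Tac1 were the other members, described above with the striatal genes. Chga (-0.45 ± 0.13), Pdyn (-0.84 ± 0.30) and Chgb (0.37 ± 0.13) did not pass. The number lower was 3, 2, 5 and 5 without the 3-day, 5-day, 7-day and 3-week pair.

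Of the 6 neuropeptide genes, Npy, Vip, Tac1 and Penk did not pass without the 5-day pair. All 6 were lower in the main fit, and the start regions of 4 are shown because only these had a region in the RefSeq set used. Each is 250 bases before to 50 after the transcription start, in the direction of transcription, taken from RefSeq on GRCm38.p6, and capitals mark matches on either strand to a TATA box (TATAAA), the cAMP response element (TGACGTCA), a GC box (GGGCGG) and a NeuroD-type E-box (CAGATG).
Npy, chr6:49822460-49822759, plus strand: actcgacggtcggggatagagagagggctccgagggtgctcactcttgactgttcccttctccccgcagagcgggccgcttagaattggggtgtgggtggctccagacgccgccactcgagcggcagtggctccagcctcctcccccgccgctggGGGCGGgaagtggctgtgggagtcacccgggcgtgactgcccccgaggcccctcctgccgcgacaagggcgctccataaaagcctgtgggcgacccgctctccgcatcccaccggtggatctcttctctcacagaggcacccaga
Vip, chr10:5638968-5639267, plus strand: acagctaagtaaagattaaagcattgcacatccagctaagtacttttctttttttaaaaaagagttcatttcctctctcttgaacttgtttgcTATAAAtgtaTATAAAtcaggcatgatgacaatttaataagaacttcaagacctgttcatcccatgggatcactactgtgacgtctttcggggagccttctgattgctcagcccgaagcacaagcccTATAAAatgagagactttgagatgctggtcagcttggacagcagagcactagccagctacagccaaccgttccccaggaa
Tac1, chr6:7554811-7555110, plus strand: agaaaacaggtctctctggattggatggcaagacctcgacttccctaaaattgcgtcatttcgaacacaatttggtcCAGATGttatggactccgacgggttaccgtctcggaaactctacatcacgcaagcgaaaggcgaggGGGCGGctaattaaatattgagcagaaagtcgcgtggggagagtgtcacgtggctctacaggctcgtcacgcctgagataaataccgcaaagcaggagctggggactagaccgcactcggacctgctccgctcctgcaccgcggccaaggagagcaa
Cartpt, chr13:99900634-99900933, minus strand: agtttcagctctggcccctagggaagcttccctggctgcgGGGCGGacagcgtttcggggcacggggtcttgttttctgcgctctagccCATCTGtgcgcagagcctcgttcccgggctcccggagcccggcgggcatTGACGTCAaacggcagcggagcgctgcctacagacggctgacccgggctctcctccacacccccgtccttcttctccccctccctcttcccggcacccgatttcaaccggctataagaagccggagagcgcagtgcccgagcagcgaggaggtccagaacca
Cartpt held the cAMP response element 112 bases before its start, a motif that 2.98% of 12788 start regions of the tested genes held, and a GC box and an E-box (on the opposite strand) further upstream. Vip held the TATA box 30, 147 and 157 bases before the start, against 7.16% of all regions with at least 1. Npy held a GC box 95 bases before the start and Tac1 one at 107 and an E-box at 173 bases. A GC box was in 61.8% of all regions and the E-box in 11.6%.

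Start regions of the called genes as a whole were counted for the same motifs. Of 13053 genes tested 9906 had a region, and 456 of the 635 called. The E-box CAGATG was in 15.6% of 334 regions of the genes higher in hippocampus, in 12.1% of 331 regions of those lower, and in 11.6% over all genes. The GC box was in 60.5% and 56.5%, the TATA box in 8.68% and 9.67%, and the cAMP response element in 2.4% and 3.02%. These are counts of letters and were not tested.

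Among 29 interneuron genes, 19 values were above 0 and 10 below (median 0.12). Called lower were 4 and none higher, against 2.45% called lower over all genes. Beside Npy, Vip and Tac1 this was Pvalb, the calcium buffer of fast-spiking basket cells, at 55.1, 63.1, 37.3 and 72.04 CPM in hippocampus and 71.5, 136, 43.5 and 157 CPM in cortex (-0.72 ± 0.17, adjusted p = 0.03). The tissues overlapped there, with the 5-day and 3-week cortex the highest. Tac1 was highest in the 5-day cortex, as given above with the striatal genes. Without the 5-day pair none of the 4 passed. Nos1, nitric oxide synthase, had 54.7 to 69.6 CPM in hippocampus and 20.02 to 48.9 CPM in cortex without overlap and did not pass (0.82 ± 0.22, adjusted p = 0.056), and Dlx1 (0.61 ± 0.24) and Cnr1 (0.40 ± 0.17) did not either. Summed over the list the level was 1775 to 1947 CPM in hippocampus and 1789 to 2047 CPM in cortex.

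Receptors of peptides and amines differed gene by gene. Npy2r, a presynaptic receptor of neuropeptide Y, was higher in hippocampus at 19.6, 49.1, 61.5 and 21.1 CPM in hippocampus and 4.68, 4.04, 7.62 and 5.62 CPM in cortex (2.65 ± 0.28, adjusted p = 0.00028), while its ligand gene Npy was lower. Oprk1, the kappa opioid receptor, was lower at 0.866, 1.25, 1.11 and 1.09 CPM in hippocampus and 8.46, 16.6, 5.83 and 3.91 CPM in cortex (-2.80 ± 0.48, adjusted p = 0.0051), as was Cckbr, the cholecystokinin B receptor, at 4.65 to 19.6 CPM in hippocampus and 26.4 to 37.02 CPM in cortex (-1.62 ± 0.30). Of 17 peptide receptor genes tested no other passed, and Ntsr2 (0.49 ± 0.14), Sstr3 (0.57 ± 0.21) and Adcyap1r1 (0.45 ± 0.17) came nearest. Among 28 receptors of monoamines, acetylcholine and adenosine, 2 were higher and 2 lower. Beside both lists stand the shares over all genes, 2.41% higher and 2.45% lower. Drd5, the other D1-type dopamine receptor, had 16.3, 10.01, 16.97 and 13.1 CPM in hippocampus and 4.23, 1.71, 0.952 and 1.71 CPM in cortex (2.81 ± 0.40, adjusted p = 0.0014), opposite in direction to Drd1. Adra1b, an alpha-1 adrenergic receptor, was lower at 10.7, 4.47, 1.25 and 6.14 CPM in hippocampus and 36.5, 23.6, 17.02 and 20.1 CPM in cortex (-2.28 ± 0.31, adjusted p = 0.0012). Adora1, the inhibitory adenosine receptor, was higher at 197 to 299 CPM in hippocampus and 145 to 199.7 CPM in cortex (0.53 ± 0.12). Of these receptors Npy2r, Drd5 and Adra1b passed in each fit without 1 time, Oprk1 and Cckbr in 3 and Adora1 in 1. Adrb1 (-0.78 ± 0.22), Htr4 (2.60 ± 0.83) and Adora2a did not pass. Htr4, a serotonin receptor, had 1.97 to 3.41 CPM in hippocampus and 0.119 to 0.979 CPM in cortex.

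Of 26 genes of ionotropic glutamate receptors, which carry fast excitation, and their auxiliary subunits, 3 were higher and 1 lower (median 0.18). For these and the metabotropic receptors below, the shares over all genes were 2.41% higher and 2.45% lower. Gria1, the GluA1 subunit, had 931, 1083, 1162 and 712 CPM in hippocampus and 402, 298, 345 and 349 CPM in cortex (1.46 ± 0.15, adjusted p = 0.00024). Cnih2, a cornichon that slows AMPA receptor closing, had 497, 542, 831 and 458 CPM in hippocampus and 251, 234, 348 and 196 CPM in cortex (1.17 ± 0.11, adjusted p = 0.00017). Shisa6, which keeps AMPA receptors from desensitising, had 29.1, 29.5, 80.4 and 23.9 CPM in hippocampus and 6.01, 0.979, 5.24 and 5.86 CPM in cortex. Gsg1l, another auxiliary subunit, was lower at 7.09 to 18.3 CPM in hippocampus and 24.1 to 41.5 CPM in cortex (-1.39 ± 0.29). No overlap was seen in these 4. Cnih3 (-0.57 ± 0.17), Gria4 (-0.55 ± 0.17) and Cacng3 (-0.65 ± 0.21) did not pass. Of 7 metabotropic receptors, Grm5 was higher (405 to 504 CPM in hippocampus and 307 to 352 CPM in cortex; 0.45 ± 0.12) and Grm3 (40.5 to 62.1 CPM in hippocampus and 92.97 to 121 CPM in cortex; -1.02 ± 0.14) and Grm8 (2.50 to 10.2 CPM in hippocampus and 11.4 to 21.7 CPM in cortex; -1.49 ± 0.35) were lower. Grm2 (0.48 ± 0.22) and Grm7 (-0.25 ± 0.17) did not pass. Gria1, Cnih2, Shisa6 and Grm3 passed in each fit without 1 time, Gsg1l in 2 and Grm5 and Grm8 in 1.

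The alpha subunits of GABA-A receptors went in both directions. Gabra5, the alpha-5 subunit known for receptors outside hippocampal synapses, had 162, 163, 241 and 145 CPM in hippocampus and 60.9, 50.4, 82.6 and 50.7 CPM in cortex and shared the smallest adjusted p of the comparison (1.54 ± 0.12, adjusted p = 8.47e-05). Gabra3 was lower at 96.1, 58.6, 42.7 and 84.2 CPM in hippocampus and 169, 158, 160.1 and 148 CPM in cortex (-1.23 ± 0.18, adjusted p = 0.0015). Each cortical library held less Gabra5 and more Gabra3 than each hippocampal one. Gabrb2 was lower as well (233 to 380.5 CPM in hippocampus and 317 to 512 CPM in cortex; -0.44 ± 0.11). Gabrd, the delta subunit, had 15.4, 2.86, 9.88 and 11.1 CPM in hippocampus and 20.7, 41.2, 19.3 and 28.7 CPM in cortex without overlap and did not pass (-1.50 ± 0.41, adjusted p = 0.054), nor did Gabrb1 (0.44 ± 0.13). In all, 1 of 13 tested was higher and 3 lower, against 2.41% and 2.45% over all genes. Gabra3 and Gabra5 passed in each fit without 1 time and Gabrb2 in none. The start regions of Gabra5 and Exph5 are shown because, among genes with 1 annotated region, these had the smallest p in each direction, and the same motifs are in capitals.
Gabra5, chr7:57510010-57510309, minus strand: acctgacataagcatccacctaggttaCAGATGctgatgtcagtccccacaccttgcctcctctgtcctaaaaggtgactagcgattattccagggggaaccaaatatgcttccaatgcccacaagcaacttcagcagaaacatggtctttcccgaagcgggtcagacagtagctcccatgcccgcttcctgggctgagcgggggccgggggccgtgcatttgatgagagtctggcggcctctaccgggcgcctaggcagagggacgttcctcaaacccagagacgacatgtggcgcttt
Exph5, chr9:53301420-53301719, plus strand: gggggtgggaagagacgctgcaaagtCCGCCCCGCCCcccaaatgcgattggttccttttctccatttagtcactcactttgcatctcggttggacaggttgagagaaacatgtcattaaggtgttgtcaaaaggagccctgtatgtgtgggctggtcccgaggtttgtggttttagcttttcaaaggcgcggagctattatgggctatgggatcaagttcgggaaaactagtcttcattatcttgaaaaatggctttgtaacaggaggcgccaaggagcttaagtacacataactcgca
That of Gabra5 held the E-box CAGATG 223 bases before the start, and that of Exph5 a pair of overlapping GC boxes on the opposite strand at 224 and 219 bases.

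Potassium channel genes that passed were lower in hippocampus in 9 of 12 cases, of 50 tested (median -0.19). Over all genes 2.45% were called lower and 2.41% higher. Kcnv1, a silent modifier subunit, had 22.4, 34.7, 36.03 and 33.3 CPM in hippocampus and 88.4, 97.7, 155 and 90.2 CPM in cortex (-1.75 ± 0.15, adjusted p = 0.0001), and Kcng2, another modifier subunit, went the other way with 19.4, 18.4, 24.6 and 12.8 CPM in hippocampus and 6.46, 3.79, 3.57 and 1.83 CPM in cortex (2.33 ± 0.30, adjusted p = 0.00083). Neither overlapped between the tissues, and both passed in each fit without 1 time. Lower were the ether-a-go-go family members Kcnh1 (-0.88 ± 0.18), Kcnh3 (-0.76 ± 0.20) and Kcnh7 (-1.09 ± 0.20), the inward rectifiers Kcnj4 (-0.73 ± 0.14) and Kcnj9 (-0.79 ± 0.18), the leak channel Kcnk3 (-0.70 ± 0.18) and the modifier Kcnf1 (-1.24 ± 0.24). Kcnd2, the A-type channel of dendrites (163 to 229 CPM in hippocampus and 106 to 146 CPM in cortex; 0.62 ± 0.15), and the beta subunit Kcnab2 (0.76 ± 0.16) were higher. Kcnk2 (-0.53 ± 0.14), Kcna2 (-0.49 ± 0.13) and Kcna6 (-0.56 ± 0.15) did not pass. The counts rested on single times: without the 3-day, 5-day, 7-day and 3-week pair, 1, 4, 2 and 1 higher and 1, 3, 9 and 5 lower passed. Kcnj9 passed in none of these fits.

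Of 31 sodium, calcium and cation channel genes, 3 were higher and 3 lower (median 0.07), against 2.41% and 2.45% over all genes. Scn3b, an auxiliary sodium channel subunit, had 78.99, 80.1, 102 and 53.5 CPM in hippocampus and 31.97, 32.3, 32.4 and 28.1 CPM in cortex (1.30 ± 0.15, adjusted p = 0.00053). Scn1a, the main sodium channel of fast-spiking interneurons, had 101, 78.1, 76.8 and 126 CPM in hippocampus and 168, 159, 135 and 236 CPM in cortex (-0.87 ± 0.12, adjusted p = 0.0011). These 2 passed in each fit without 1 time, and the tissues did not overlap. Trpc4, a receptor-operated cation channel (1.15 ± 0.23), and Cacna1h, a T-type calcium channel (1.09 ± 0.27), were higher, and the calcium channel subunits Cacnb4 (-0.65 ± 0.12) and Cacna2d1 (-0.43 ± 0.11) lower. Cacnb4 passed in 3 of the 4 fits without 1 time, Trpc4 in 2, Cacna2d1 in 1 and Cacna1h in none. The list's counts were 1, 1, 2 and 2 higher and 1, 2, 3 and 2 lower without the 3-day, 5-day, 7-day and 3-week pair. Scn2a1 (-0.43 ± 0.12), Trpc5 (0.62 ± 0.21) and Cacnb3 (-0.33 ± 0.13) did not pass.

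**Figure D4:**
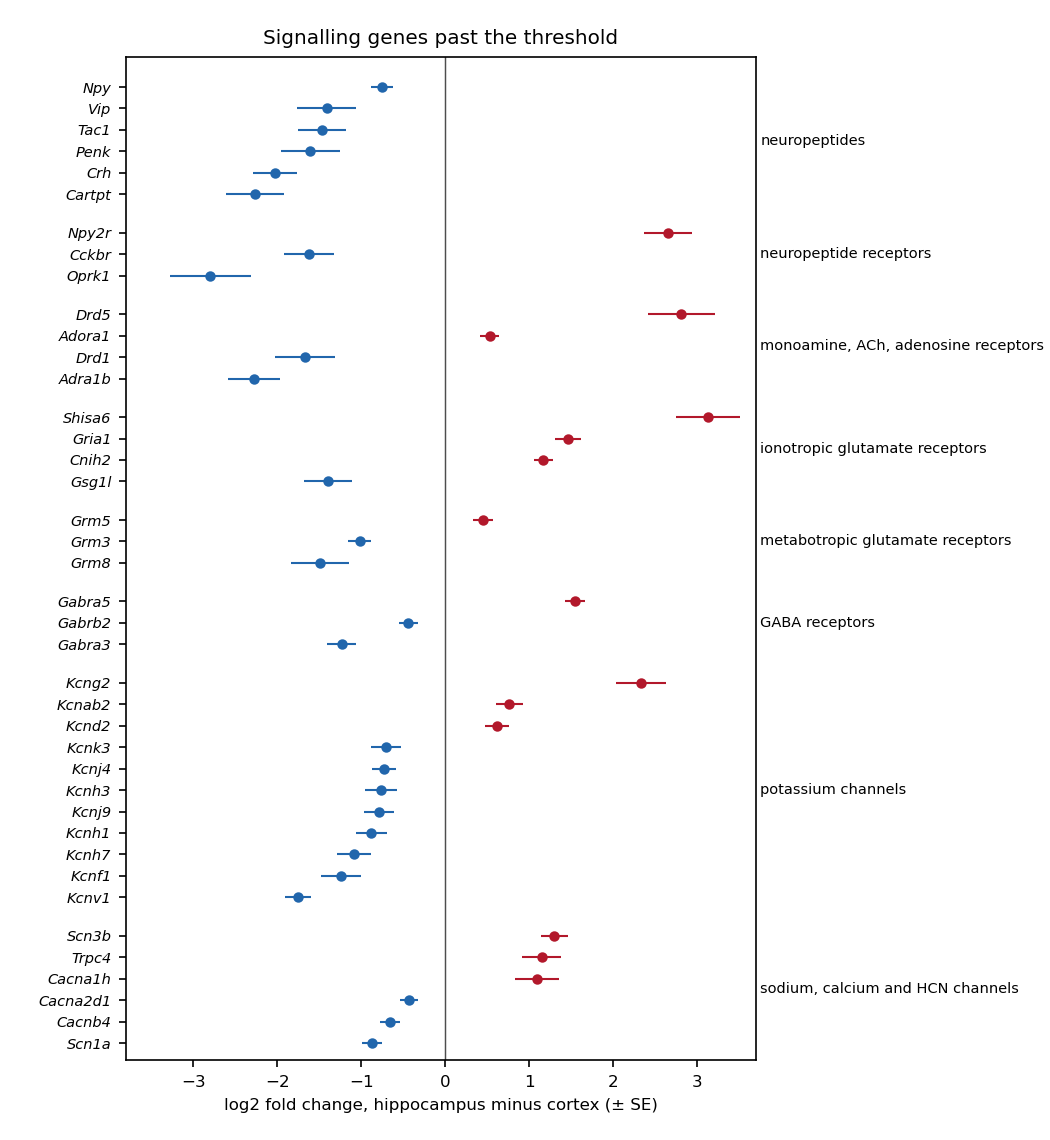
Log2 fold change, hippocampus minus cortex, of the named receptor, peptide and channel genes past an adjusted p of 0.05 (points, with SE as bars; red, higher in hippocampus; blue, lower; n = 4 libraries per tissue). The 6 neuropeptides lie left of 0, as do all but 3 of the potassium channel genes shown, and the amine, glutamate and GABA receptor groups have members on both sides.

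Of 60 genes of enzymes and sensors of calcium and cyclic AMP signals, 11 were higher and 12 lower (median -0.10), where 2.41% and 2.45% were called over all genes. The difference from all genes was not tested. Hpca, the calcium sensor hippocalcin, had 1097, 1963, 2826 and 886 CPM in hippocampus and 388, 710.3, 323 and 359.6 CPM in cortex (1.83 ± 0.25, adjusted p = 0.0011), with the 5-day cortex the highest of its tissue and below each hippocampal library. Among protein kinase C genes Prkca (208 to 462 CPM in hippocampus and 136 to 207 CPM in cortex; 0.81 ± 0.20), Prkce (0.59 ± 0.13) and Prkcd were higher. Subunits of protein kinase A were lower: Prkar2b (53.4 to 74.5 CPM in hippocampus and 89.5 to 122 CPM in cortex; -0.84 ± 0.13), Prkar1b (-0.59 ± 0.12) and the catalytic Prkacb (-0.76 ± 0.13). Calmodulin-dependent kinases divided, with Camk2b (0.66 ± 0.15), Camkk1 (0.83 ± 0.16) and Camkv (0.48 ± 0.12) higher and Camk1 (-0.72 ± 0.13), Camk4 (133 to 163 CPM in hippocampus and 214 to 314 CPM in cortex; -0.83 ± 0.14) and Camkk2 (-0.71 ± 0.15) lower. Camk2a did not overlap between the tissues (3656 to 6181 CPM in hippocampus and 2492 to 3456 CPM in cortex) and missed the threshold (0.55 ± 0.15, adjusted p = 0.051). Adcy1, a calcium-activated adenylyl cyclase (0.61 ± 0.13), Ryr3, a calcium release channel (1.005 ± 0.24), and Rasgrf1, a calcium-activated Ras exchanger (0.76 ± 0.13), were higher, and Plcb4 (-1.26 ± 0.20), Vsnl1 (-0.44 ± 0.11), Necab3 (-1.38 ± 0.28), Rasgrf2, Pvalb and Pcp4 lower. Itpka (0.46 ± 0.12) and Necab1 (-0.73 ± 0.20) did not pass. Without the 3-day, 5-day, 7-day and 3-week pair, 6, 6, 10 and 6 higher and 5, 6, 13 and 8 lower passed. Camkv and Vsnl1 passed in none of these fits.

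Of 28 immediate early genes, which neurons transcribe within minutes of activity, 6 were lower and 2 higher (median -0.35). The shares over all genes were 2.45% lower and 2.41% higher. Egr1, a zinc finger factor, had 195, 99.01, 135 and 245 CPM in hippocampus and 318, 157, 258 and 564 CPM in cortex (-0.88 ± 0.13, adjusted p = 0.0015): cortex was above hippocampus at each time, and the ranges overlapped across times. Homer1, a postsynaptic scaffold gene with an activity-induced short form, had 140.3, 99.7, 139 and 146 CPM in hippocampus and 246, 204, 163 and 289.5 CPM in cortex (-0.77 ± 0.14). Dusp1, a phosphatase of MAP kinases (10.2 to 20.7 CPM in hippocampus and 22.3 to 47.7 CPM in cortex; -1.12 ± 0.24), Egr3, Fosb (-1.18 ± 0.30) and Btg2 (-0.74 ± 0.20) were the other lower genes. Nr4a3, an orphan nuclear receptor, was higher at 37.9, 47.01, 76.1 and 30.7 CPM in hippocampus and 18.1, 9.05, 16.3 and 26.7 CPM in cortex (1.45 ± 0.31, adjusted p = 0.016), and Bdnf, the neurotrophin gene, at 135, 158, 260.2 and 189 CPM in hippocampus and 114, 73.4, 114 and 158 CPM in cortex (0.69 ± 0.17, adjusted p = 0.036). Jun (0.66 ± 0.17), Ier5 (-0.49 ± 0.13) and Fosl2 (0.81 ± 0.27) did not pass. Egr1 passed in each fit without 1 time. The list's counts were 0, 0, 3 and 2 higher and 2, 2, 5 and 1 lower without the 3-day, 5-day, 7-day and 3-week pair. Fosb and Btg2 passed in none of these fits.

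Guidance and adhesion genes place axons and synapses and stay active in the adult brain. Of 59 axon guidance and synapse organiser genes, 14 were higher in hippocampus and 6 lower (median 0.21). Over all genes 2.41% were called higher and 2.45% lower. Slit1, a repellent ligand, had 30.5, 31.99, 38.95 and 13.9 CPM in hippocampus and 10.1, 7.46, 8.45 and 1.83 CPM in cortex (2.14 ± 0.25, adjusted p = 0.00042). Efna5, a membrane-bound ephrin ligand, was lower at 23.7, 21.3, 8.49 and 28.1 CPM in hippocampus and 59.6, 44.3, 40 and 81.8 CPM in cortex (-1.52 ± 0.20, adjusted p = 0.0009), while the Eph receptors Epha5 (121 to 162 CPM in hippocampus and 71.8 to 76.4 CPM in cortex; 0.91 ± 0.13) and Epha7 (1.07 ± 0.17), which bind such ligands, were higher. Among class B ephrins Efnb3 (0.77 ± 0.14) was higher and Efnb2 (-0.998 ± 0.22) lower. The semaphorins Sema3e (57.6 to 86.8 CPM in hippocampus and 19.4 to 39.2 CPM in cortex; 1.42 ± 0.22) and Sema5a (1.27 ± 0.32) were higher, as were the semaphorin receptor genes Nrp1 (122 to 190.5 CPM in hippocampus and 30.6 to 70.1 CPM in cortex; 1.35 ± 0.19), Nrp2 (0.99 ± 0.18) and Plxna4 (1.09 ± 0.17). Plxnd1, the receptor of Sema3e, was lower (6.08 to 20.5 CPM in hippocampus and 26.4 to 35.95 CPM in cortex; -1.24 ± 0.29). The netrin receptors Unc5a (0.74 ± 0.18) and Unc5c (0.66 ± 0.14) and Nell2, a secreted cue (0.55 ± 0.14), were higher. Sema3a was lower, as given above. Of synapse organisers, C1ql2 and Lrrtm1 were higher and Cbln2, a cerebellin that joins neurexins to their partners, was lower at 16.98, 16.8, 5.57 and 25.8 CPM in hippocampus and 81.8, 64.95, 28.7 and 60.1 CPM in cortex (-1.92 ± 0.21, adjusted p = 0.00028), as was Lrrtm3 (-1.07 ± 0.27). Unc5d (-0.79 ± 0.21), Epha6 (1.34 ± 0.37) and Plxna1 (0.78 ± 0.23) did not pass. The counts were 11, 10, 13 and 10 higher and 3, 2, 4 and 5 lower without the 3-day, 5-day, 7-day and 3-week pair.

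Cadherins showed the opposite balance, with 5 of 24 lower and 2 higher (median -0.40), where 2.45% and 2.41% were called over all genes. Pcdh7 had 68.95, 69.2, 58.9 and 114 CPM in hippocampus and 225, 157, 116 and 219 CPM in cortex (-1.20 ± 0.14, adjusted p = 0.00059) and Pcdh20 66.5, 113, 149 and 60.2 CPM in hippocampus and 26.2, 30.7, 14.8 and 21 CPM in cortex (2.0 ± 0.27, adjusted p = 0.001). These protocadherins did not overlap between the tissues and differed in opposite directions. Pcdh11x (13.6 to 30.7 CPM in hippocampus and 48.1 to 71.4 CPM in cortex; -1.28 ± 0.18), Pcdh10 (-0.76 ± 0.13), Cdh22 (-0.99 ± 0.22) and Cdh13 (-0.98 ± 0.25) were lower and Pcdh19 (0.72 ± 0.18) higher. Cdh7 (-1.08 ± 0.31), Cdh1 (-2.48 ± 0.79) and Pcdh8 (0.66 ± 0.24) did not pass. Pcdh7, Pcdh11x and Pcdh20 passed in each fit without 1 time, and the list's counts were 1, 1, 2 and 1 higher and 2, 4, 3 and 5 lower without the 3-day, 5-day, 7-day and 3-week pair.

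Among genes of glia and vessels, Gfap, the intermediate filament of astrocytes, had 102, 182, 152 and 115 CPM in hippocampus and 46, 38.4, 86.1 and 47.6 CPM in cortex (1.36 ± 0.19, adjusted p = 0.0015), and Sox9, the factor of their identity, had 199.6, 194, 194 and 209 CPM in hippocampus and 132, 124, 146 and 136 CPM in cortex (0.57 ± 0.11, adjusted p = 0.012). The tissues did not overlap in either, and Gfap passed in each fit without 1 time and Sox9 in 1. These were 2 of 24 astrocyte genes (median 0.26), where 2.41% were called higher over all genes. Id4 (0.67 ± 0.19), Ntsr2 and Glul, glutamine synthetase (0.39 ± 0.12), did not pass. Among 15 reactive astrocyte genes Serpina3n, a protease inhibitor, had 10.7, 24.5, 26.9 and 11.1 CPM in hippocampus and 6.79, 2.81, 9.88 and 2.20 CPM in cortex (1.83 ± 0.37, adjusted p = 0.012) and Fkbp5, a co-chaperone induced by glucocorticoids, 17.6 to 39.9 CPM in hippocampus and 8.58 to 28.01 CPM in cortex (0.91 ± 0.22). Serpina3n did not pass without the 5-day or without the 3-week pair, and Fkbp5 passed in no fit without 1 time. C4b (1.24 ± 0.35), Stat3 (0.48 ± 0.17) and Cd44 (1.35 ± 0.60) did not pass. Serpina3n and Fkbp5 were the 2 called of the 15, where 2.41% were called higher over all genes. The median of the 15 was -0.10, with 7 values above 0 and 8 below, so the named members do not stand for the list.

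By edgeR's test none of 29 oligodendrocyte and myelin genes passed, although 26 values were above 0 (median 0.39) and 15 had an unadjusted p under 0.05. DESeq2 called 4 higher and none lower, and limma-voom 3 higher and 1 lower. Gpr37 (0.85 ± 0.23), Cldn11 (0.59 ± 0.17) and Ptgds, prostaglandin D synthase, which meninges and choroid plexus also make (607, 1531, 490.1 and 1031 CPM in hippocampus and 1941, 1219, 3038 and 1727 CPM in cortex; -1.18 ± 0.35), came nearest. No gene passed among 12 of oligodendrocyte precursors (Olig2 0.55 ± 0.18, Olig1 0.39 ± 0.13, Pdgfra 0.35 ± 0.21), 24 of microglia (Trem2 -0.85 ± 0.34, P2ry12 -0.51 ± 0.21, Irf8 0.56 ± 0.27), 20 of endothelium (Esam 0.46 ± 0.23, Flt1 0.31 ± 0.18, Slc2a1 0.35 ± 0.20) and 18 of mural cells and fibroblasts (Col1a1 -0.90 ± 0.28, Col1a2 -0.75 ± 0.38, Col3a1 -0.95 ± 0.52). At an unadjusted p under 0.05 there were 2, 2, 0 and 1 of these genes, and neither DESeq2 nor limma-voom called any. Of 10 red blood cell genes 4 beta-globin entries were lower, among them Hbb-bs at 363, 404, 200.3 and 268 CPM in hippocampus and 367, 827, 298 and 448 CPM in cortex (-0.59 ± 0.15) and Hbb-bt at 54.95 to 114 CPM in hippocampus and 86.5 to 198 CPM in cortex (-0.62 ± 0.14). Hbb-b1 (-0.59 ± 0.15) and Hbb-b2 (-0.61 ± 0.14) share their reads with these and are not separate measurements. The 5-day cortex held the most, and none of the 4 passed without the 5-day or without the 3-week pair. The alpha-globins Hba-a1 (-0.29 ± 0.13) and Hba-a2 (-0.63 ± 0.23) did not pass. Over all genes 2.45% were called lower.

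In the glucocorticoid pathway Fkbp5 and Zbtb16, both induced by the hormone (35.5 to 67.02 CPM in hippocampus and 18.6 to 29.4 CPM in cortex; 0.89 ± 0.23 for Zbtb16), were higher and Crh and Dusp1 lower, of 23 tested. Crh passed in each fit without 1 time, Zbtb16 and Dusp1 in 1 of the 4 and Fkbp5 in none. The receptor genes Nr3c1 (-0.52 ± 0.14) and Nr3c2 and the target Ddit4 (0.70 ± 0.19) did not pass. The median of the 23 was 0.06, and over all genes 2.41% were called higher and 2.45% lower. Among 17 genes of immature neurons and progenitors Hopx, a homeodomain-only protein of neural stem cells and astrocytes, was higher at 76.2, 55.6, 64.5 and 56.9 CPM in hippocampus and 33.4, 22.1, 35 and 38.1 CPM in cortex (0.99 ± 0.16, adjusted p = 0.0037), and Neurod1 (0.67 ± 0.20), Sox11 (0.43 ± 0.15) and Igfbpl1 (2.23 ± 0.79) did not pass. Of 18 genes of the response to particles and oxidants, Mt2, a metallothionein, was higher at 378, 556, 350.3 and 354 CPM in hippocampus and 204, 408, 279.9 and 262 CPM in cortex (0.52 ± 0.12, adjusted p = 0.031), with overlap, and Gpx1 (-0.45 ± 0.14), Sod1 (-0.24 ± 0.12) and Mt1 (0.23 ± 0.13) did not pass. Neat1, the RNA that builds paraspeckles, was higher at 44.3 to 67.9 CPM in hippocampus and 26.8 to 38.1 CPM in cortex (0.85 ± 0.17, adjusted p = 0.01), and Rian (-0.20 ± 0.12), Kcnq1ot1 (-0.40 ± 0.23) and Miat (0.37 ± 0.22) did not pass. Hopx, Neat1 and Mt2 were the only members called of 17, 8 and 18 tested, against the 2.41% called higher over all genes. The medians of these lists were 0.15, -0.14 and 0.01. Hopx passed in each fit without 1 time, Neat1 in 2 and Mt2 in 1. No gene passed among 84 of ribosomal proteins (median -0.16; Rpl31 -0.51 ± 0.14, Rpl17 -0.53 ± 0.16, Rpl35 -0.36 ± 0.14) and 80 of oxidative phosphorylation (median -0.10; Ndufb4 -0.37 ± 0.13, Ndufs8 -0.42 ± 0.15, Ndufv3 -0.33 ± 0.12). At an unadjusted p under 0.05 there were 7 and 6 genes, and DESeq2 and limma-voom each called 1 ribosomal gene lower and no gene of oxidative phosphorylation. The ribosomal list summed to 16458 to 18527 CPM in hippocampus and 15107 to 22902 CPM in cortex.

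The difference between the tissues varied in size over the 4 times. The genes called higher had a median log2 ratio of hippocampus to cortex of 0.73, 0.96, 1.08 and 0.75 at 3 days, 5 days, 7 days and 3 weeks, and those called lower one of -0.78, -0.95, -1.01 and -0.67. The ratios were thus largest at 7 days and smallest at 3 days for the first and 3 weeks for the second. Each time has 1 library per tissue, so these are differences between libraries with no replicate check.

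The same comparison in the other 10 libraries, 5 of each tissue, called 2797 of 13625 genes (20.5%), 1327 higher and 1470 lower, and with total counts alone 1889 higher and 1016 lower. These libraries share none of the 8, but their columns are named differently in the file headers. Rn45s, the ribosomal RNA precursor, took 14.83% to 18.61% of counts in the 8 and 7.75% to 12.88% in the 10. With each library thinned to 5.43 M counts, 14643 to 15901 genes were detected in the 8 and 16274 to 16991 in the 10. Time, exposure and library set therefore cannot be told apart. The median SE of a gene was 0.22 in the 8 libraries and 0.12 in the 10. Of the 635 called genes 633 were tested in both, and 617 had the same direction. Called in both were 528 genes, which is 83.1% of those called in the 8 and 18.9% of those called in the 10. Foxp2 was at -2.55 ± 0.29 in the 10 libraries, Mef2c at -1.93 ± 0.24, Gabra5 at 1.56 ± 0.09 and C1ql2 at 3.99 ± 0.25. Cartpt, at -2.26 ± 0.35 in the 8, was at -0.15 ± 0.34 in the 10, and Lrrc10b, at 2.83 ± 0.59, was at 0.72 ± 0.30. The 16 genes with opposite signs included Adora1 (-0.10 in the 10), Nfix (-0.16) and Btg2 (0.09), and none of the 16 passed in the 10.

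**Figure D5:**
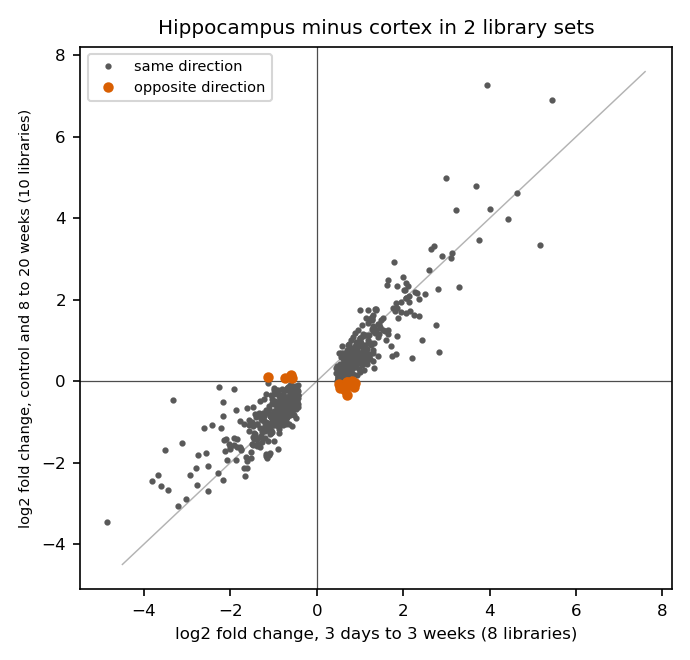
Log2 fold change, hippocampus minus cortex, of the genes called in the 8 libraries of 3 days to 3 weeks (horizontal) against the same in the 10 libraries of the control and 8 to 20 weeks (vertical); the grey line marks equal values. Of 633 genes 617 lie in the quadrants of equal sign and 16 (orange) do not, the latter between -0.33 and 0.15 on the vertical axis.

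Whether the tissue difference itself differed between the library sets was tested with the interaction of tissue and set over the 18 libraries. Of 14249 genes edgeR called 0 (0.0%), with a smallest adjusted p of 0.143 and 1593 genes under an unadjusted 0.05. DESeq2 called 55 and limma-voom 0. With the control libraries left out edgeR called 8. In simulated data the interaction test recovered 4% of differences of 1.5-fold and 49% of those of 2-fold, so smaller differences can be missed. The genes with the smallest p were Zbtb7a (0.24 ± 0.12 in the 8 and -0.54 ± 0.08 in the 10), Sclt1 (-1.13 ± 0.21 and -0.06 ± 0.10), Il1rapl1 (-1.92 ± 0.32 and -0.20 ± 0.17), Fmn2 (0.30 ± 0.12 and -0.40 ± 0.07) and the dentate gene Sema5b (1.16 ± 0.38 and -1.24 ± 0.23). Sema5b, a transmembrane semaphorin, stood at 5.02, 7.86, 12.9 and 7.09 CPM in hippocampus and 1.45, 2.69, 6.19 and 5.37 CPM in cortex in the 8.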

How the data were processed

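The deposited tables held raw counts of reads per gene symbol for each library, made by the authors. Per the labels' protocols, TRIzol-extracted RNA with an integrity number above 7 was pooled by group, turned into 3' libraries with a QuantSeq kit and sequenced in single reads. Bowtie2, bedtools, edgeR and the mouse build mm10 are named in the submitters' processing notes. The gene annotation, the use of strand and versions are not given in the sources used here, so antisense and overlapping genes cannot be told apart. The kit reads the 3' end of transcripts, and no molecular identifiers are described, so floors cover counting error only.

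Each file had 23282 lines, and 35 symbols on several lines were summed. Of the 8 libraries, Rn45s took 14.83% to 18.61% of counts, and no pair of libraries agreed within sampling noise. edgeR 4.0.16 (R 4.3.3) was run with filterByExpr by tissue, TMM, exposure time and tissue as terms, the quasi-likelihood F test, and Benjamini-Hochberg adjustment over all genes tested. The threshold was an adjusted p of 0.05, and the SE is the log2 fold change divided by the root of F. The fit had 3 residual degrees of freedom among libraries, to which the shared prior added 9.64. The other 10 libraries were fitted the same way, and all 18 with the interaction of tissue and library set.

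Deviations from the tissue mean were at most weakly shared by libraries of the same time. The correlations across genes were 0.106, 0.07, 0.002 and 0.069 at 3 days, 5 days, 7 days and 3 weeks. Those of other pairs were -0.124 to 0.061. With 1 library per tissue and time, the term for time made the fit compare the tissues within each time. Whether the tissues of a time came from the same mice is not known. Alternatives were DESeq2 1.42.0, limma-voom 3.58.1, other scalings and filters, a fold above 1.5, no term for time, and leaving out times or libraries. The scripts were tested on simulated data. There the main test recovered 20% of genes changed 1.5-fold, 62.5% of those changed 2-fold and 78% of those changed 4-fold. A gene that did not pass can therefore still differ. Tables were joined with Python 3.11.15 and pandas 2.3.3. Gene positions are those of GENCODE M21 on GRCm38, and start regions those of RefSeq on GRCm38.p6, matched by symbol.

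Named are the 12 genes with the largest fold change in each direction among called genes whose mean reached 5 CPM. Named too are, in each list, up to 5 passing and up to 3 other members with the smallest p, all members of subfield and layer lists, the most abundant member of each list of a neighbouring structure, and the 5 genes with the smallest interaction p. Some genes that these rules name are not reported here. The comparison, the 41 lists and the tests were chosen with earlier results of these data known. Genes that share reads (Hbb-bs with Hbb-b1, Hbb-bt with Hbb-b2, Baiap3 with Tsr3) are uncertain.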

Additional observations from a re-analysis of the deposited data

Results flagged for a closer look

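A library stood apart in a group of 4 when its gap to the nearest other library, divided by the range of the group, passed Dixon's 95% critical value for 4 values. Among 644 groups of gene values and 82 of list sums, 46 and 12 did so, where chance gives about 1 in 20. The values of the other 3 libraries of the tissue are given in parentheses. The 5-day cortex was high in Adcy5 at 69.1 CPM (23.7 to 30.7 CPM), Adora2a at 37.4 CPM (1.31 to 4.76 CPM), Drd1 at 267 CPM (41.4 to 69.8 CPM) and Hpca at 710 CPM (323 to 388 CPM). It was also high in Kcnj4 at 289 CPM (206 to 212 CPM), Lrrc10b at 62.6 CPM (3.01 to 5.36 CPM), Pcp4 at 692 CPM (360 to 417 CPM) and Penk at 255 CPM (27.3 to 36.9 CPM). Further high values there were Ppp1r1b at 467 CPM (76.8 to 110 CPM), Six3 at 64.5 CPM (6.23 to 8.58 CPM), Tac1 at 112 CPM (15.6 to 25.9 CPM) and the summed CA2 pyramidal cells list at 927 CPM (537 to 569 CPM). High there too were the summed striatal projection neurons list at 2483 CPM (615 to 928 CPM). The 5-day cortex was low in Shisa6 at 0.979 CPM (5.24 to 6.01 CPM). The 5-day hippocampus was high in Dlk1 at 149 CPM (12.5 to 27.5 CPM), Esam at 36.5 CPM (13.7 to 16.1 CPM), Mt2 at 556 CPM (350 to 378 CPM) and Olig2 at 61.8 CPM (33.4 to 37.8 CPM). It was also high in Six3 at 26.8 CPM (2.46 to 3.81 CPM), Slc2a1 at 62.4 CPM (26.2 to 30.9 CPM), Stat3 at 107 CPM (56.3 to 60 CPM) and Tcerg1l at 13.8 CPM (3.76 to 4.91 CPM). Further high values there were the summed hypothalamus list at 48.8 CPM (24.6 to 27.6 CPM), the summed reactive astrocytes list at 381 CPM (216 to 226 CPM) and the summed oligodendrocyte precursors list at 410 CPM (372 to 375 CPM). The 5-day hippocampus was low in Camk4 at 133 CPM (159 to 163 CPM), Homer1 at 99.7 CPM (139 to 146 CPM) and the summed oxidative phosphorylation genes list at 15403 CPM (15829 to 15856 CPM).

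The 3-day hippocampus was high in Enpp2 at 1524 CPM (131 to 242 CPM), Igfbp2 at 73.1 CPM (16.4 to 16.6 CPM), Ndst4 at 25.8 CPM (9.41 to 11.4 CPM) and Ttr at 6216 CPM (18.9 to 266 CPM). It was also high in the summed cortical layer 5 list at 1404 CPM (1169 to 1187 CPM) and the summed choroid plexus list at 8421 CPM (239 to 606 CPM). The 3-day hippocampus was low in Pomc at 1.21 CPM (2.09 to 2.18 CPM), Rspo1 at 0 CPM (1.81 to 2.14 CPM) and the summed interneurons list at 1775 CPM (1928 to 1947 CPM). The 7-day hippocampus was high in Nrp1 at 190 CPM (122 to 131 CPM) and Shisa6 at 80.4 CPM (23.9 to 29.5 CPM). The 7-day hippocampus was low in Plcb4 at 7.79 CPM (18.4 to 20.3 CPM). The 3-week hippocampus was high in Fosb at 12 CPM (4.29 to 5.56 CPM), Kcnj4 at 169 CPM (126 to 127 CPM), Map3k15 at 33.3 CPM (26.9 to 27.7 CPM) and Necab1 at 89.6 CPM (35.2 to 44.3 CPM). It was also high in Tnnc1 at 4.37 CPM (0 to 0.696 CPM). The 3-week hippocampus was low in Ndufb4 at 82.1 CPM (92.4 to 93.3 CPM). The 3-day cortex was high in Amigo2 at 6.46 CPM (4.16 to 4.52 CPM) and the summed dentate granule cells list at 422 CPM (353 to 362 CPM). The 3-day cortex was low in Cacnb3 at 87.5 CPM (94.1 to 94.5 CPM) and Vip at 25.5 CPM (30.2 to 30.9 CPM). The 7-day cortex was high in Efnb3 at 93.1 CPM (62.9 to 67.2 CPM) and Kcnv1 at 155 CPM (88.4 to 97.7 CPM). The 7-day cortex was low in Pou3f1 at 30.7 CPM (69.6 to 76.9 CPM) and the summed interneurons list at 1789 CPM (2008 to 2047 CPM). The 3-week cortex was high in Elavl2 at 405 CPM (322 to 329 CPM) and the summed thalamus and habenula list at 581 CPM (492 to 496 CPM). The 3-week cortex was low in Cdh13 at 42.4 CPM (63.7 to 63.8 CPM) and Scn3b at 28.1 CPM (32 to 32.4 CPM).

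In 5 genes each of the 4 times in the 8 libraries had one sign and each of the 5 pairs of the other 10 libraries the opposite sign. The test of the difference itself, edgeR's interaction of tissue and library set with Benjamini-Hochberg adjustment, passed for none of them. Sema5b was at 1.16 in the 8 and at -1.24 in the 10 (log2 fold change, adjusted p of the difference 0.143), Zbtb7a at 0.24 and -0.54 (0.143) and Fmn2 at 0.30 and -0.40 (0.143). Ndufs8 was at -0.42 and 0.15 (0.253) and P2ry12 at -0.51 and 0.12 (0.306).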

How the results depend on the processing

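For the 8 libraries the count of 635 genes stayed within 1.5 times under total counts alone (597), RLE size factors (635), limma-voom (799), DESeq2 (909), a mean of at least 50 counts (720) and with Rn45s, mitochondrial and choroid plexus genes left out (652). Without a filter on low counts it was 1049 and for a fold above 1.5 it was 135. With exposure time as a factor, leaving out 1 time gave 305 to 524 genes (305 without 3 days, 305 without 5 days, 524 without 7 days and 392 without 3 weeks). With no replicate block, that is with exposure time not a factor, 536 genes were called, and leaving out single libraries then gave 298 (without the 3-week cortex) to 649 (without the 3-week hippocampus), with 392 without the 5-day and 311 without the 7-day hippocampus. The cause of these shifts was not tested, beyond the loss of samples that each leave-out brings. Of 170 named genes past the threshold, 50 passed under each of the 21 alternatives that tested them and 15 were lost under DESeq2, limma-voom or another scaling. The fold above 1.5 lost 112. Of 152 that did not pass, 71 passed under at least 1 alternative. Among named genes past the threshold Six3 was the 1 value that turned, to 0.351 without the 5-day cortex (exposure time not a factor).

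In the other 10 libraries the count of 2797 was 1777 without 12 weeks and at most 2822 with 1 time left out, and 2343 to 3094 under the other alternatives. The interaction gave 55 genes with DESeq2, 11 without a filter and 0 to 8 with 1 time left out. At 5.43 to 8.97 M counts and 4 libraries per tissue, a level of 3 counts is 0.335 to 0.552 CPM, and the smallest difference called was 0.43 on the log2 scale.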
